A study of Homo sapiens with 7 samples.

Results

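Aminoacyl-tRNA synthetases are the enzymes that join each amino acid to its own tRNA. The 35 genes considered were taken from a fixed list of names, 19 for the cytosolic enzymes and 16 for the mitochondrial ones, and their probes were found on the array through gene symbols and gene identifiers. Of these, 34 had at least 1 probe, 39 probes in all among the 48701 of the array, and the 34 were among 19304 named genes. WARS2, the mitochondrial tryptophanyl-tRNA synthetase, had no named probe and so has no expression value here. Its promoters were kept in the motif counts below.

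The cells were MCF-10A, a non-transformed human mammary epithelial line, stably carrying a lentiviral short hairpin RNA. In 4 arrays (shBrit1) the hairpin was directed against Brit1, a gene of the DNA damage response, and in 3 arrays (shControl) it was a scrambled sequence. Both kinds of cells were seeded at 200000 per plate and RNA was taken after 48 h, with replicates that the submitters describe as biological. Each group is stably selected cells of 1 line with 1 hairpin, as far as the labels say, and the knockdown itself was not checked here.

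Most amino acids have 2 synthetase genes, one for the cytosol and one, also encoded in the nucleus, for the mitochondrion. A single gene serves both compartments for glycine (GARS1) and lysine (KARS1), and EPRS1 carries the enzymes for glutamate and proline in one cytosolic chain. Several of the cytosolic enzymes sit together in the multi-tRNA synthetase complex on scaffold proteins. In mammalian cells short of amino acids, the transcription factor ATF4 raises many cytosolic synthetase genes through a short DNA element that C/EBP and ATF factors bind.

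Detection (p-value under 0.05) was reached by 16537 to 17343 probes per array, and the 17967 probes detected on at least 3 of the 7 arrays were tested with limma, the number of arrays limiting the precision of every value. All values below are background-corrected, quantile-normalized log2 signals, a difference is the shBrit1 mean minus the shControl mean, and a gene is called at an adjusted p under 0.05. Each gene is represented by its brightest tested probe. Of 17967 probes 53.8% were called, 26.9% higher and 26.9% lower in shBrit1. Of 12372 genes 59.6% were called, 29.5% higher and 30.1% lower in shBrit1, with a median difference of -0.0084. Replicate 3 of shControl stood apart, with an SD of log2 differences of 0.531 and 0.510 from the other controls, which differed from each other by 0.192. All 9 mammary epithelial markers on the array were detected on every array, and their summed bead signal was 30200 to 35400 in shBrit1 and 44300 to 73200 in shControl. Of these 9, KRT5, KRT14, SFN and EPCAM fell, ITGB4 rose and 4 were not called. Of 5 immune markers on the array, CD14 and CD68 rose, and the list's summed signal was 2130 to 2340 in shBrit1 and 773 to 931 in shControl. CD3E was not detected on any array, PTPRC was detected on 1 shControl array only, and LYZ on 2 shControl arrays only. Of 7 fibroblast markers, PDGFRA, PDGFRB and THY1 were not detected on any array, and the list's summed signal was 1410 to 1740 in shBrit1 and 1900 to 2050 in shControl. Of the 3 fibroblast markers tested, COL1A1 and COL3A1 rose and FAP fell. The 4 endothelial markers summed to 368 to 390 in shBrit1 and 328 to 370 in shControl, with VWF and CDH5 undetected throughout. PECAM1 was detected on all 7 arrays and KDR on 6, and neither was called. The part of these markers in the results below was not tested.

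Most cytosolic synthetase genes were lower in shBrit1, and mitochondrial ones were divided. GARS1 and KARS1, which serve both compartments, were counted as cytosolic. Of 19 cytosolic genes 16 fell (84.2%, against 30.1% of all genes) and 1 rose, QARS1 (5.26%, against 29.5% of all genes). Of 15 mitochondrial genes 6 fell (40.0%) and 3 rose (20%), so that 60% were called, near the 59.6% of all genes. The median difference was -0.75 for the cytosolic genes and -0.20 for the mitochondrial genes. The 34 genes were each detected on all 7 arrays, so no member entered through 1 group alone. As these are totals over a culture, fewer cells of a kind and less RNA per cell cannot be told apart. Leaving out shControl replicate 3 gave 16 lower and 1 higher cytosolic genes and 7 lower and 4 higher mitochondrial genes. In that fit 63.4% of all probes were called, against 53.8% with all 7 arrays. Median scaling in place of quantile normalization moved the median of all genes to -0.15, and tested against 0 it gave 18 lower and 1 higher cytosolic genes and 8 lower and 1 higher mitochondrial genes. A difference between the compartments was not tested, because genes are not replicates.

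**Figure D1:**
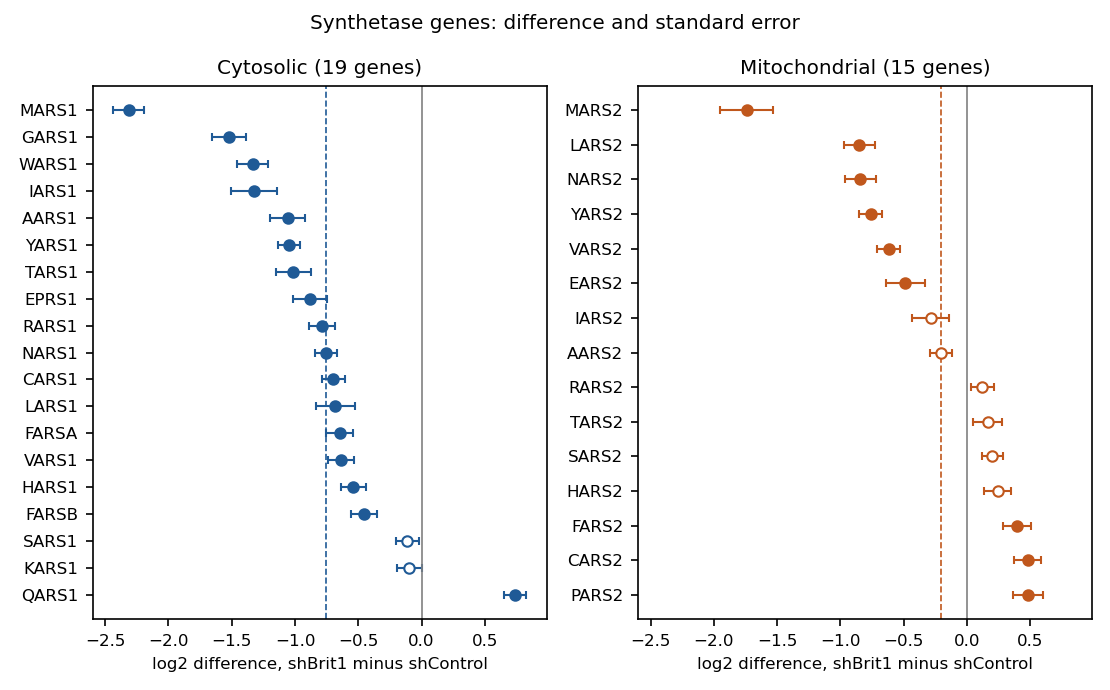
Difference between shBrit1 and shControl in log2 units (x axis) for each of the 19 cytosolic and 15 mitochondrial synthetase genes, as points with bars of 1 standard error from limma. Filled points are genes called at an adjusted p under 0.05, open points are not called, and the dashed lines mark the medians of -0.75 and -0.20.

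MARS1, the methionyl-tRNA synthetase of the cytosol, fell most among the 34 genes. Its log2 values were 8.11, 8.14, 8.18 and 8.06 on the shBrit1 arrays and 10.49, 10.66 and 10.15 on the shControl arrays. Every shBrit1 array lay far below every control, and the fold of 4.97 (log2 difference -2.31, SE 0.12, adjusted p = 1.35e-06) put MARS1 within the lowest 0.574% of all genes. The mitochondrial methionyl enzyme behaved alike in direction. MARS2 stood at 6.97, 7.26, 7.25 and 7.21 in shBrit1 and at 9.26, 9.15 and 8.33 in shControl. The groups did not overlap, with shControl replicate 3 nearest to the shBrit1 arrays, and MARS2 was 3.34-fold lower (log2 difference -1.74, SE 0.21, adjusted p = 0.000134). Methionine was the only one of the amino acids with both genes measured for which each gene was at least 2-fold lower. Methionyl-tRNA also starts every protein chain.

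GARS1, the glycyl-tRNA synthetase of both compartments, had log2 values of 11.84, 11.94, 11.93 and 11.88 in shBrit1 and of 13.62, 13.56 and 13.07 in shControl. The control arrays were all more than 1 log2 unit above the shBrit1 arrays, and the fold was 2.87 (log2 difference -1.52, SE 0.14, adjusted p = 2.16e-05). WARS1 charges tryptophan and is known to be induced by interferon gamma. It measured 8.35, 8.39, 8.44 and 8.27 in shBrit1 and 9.89, 9.78 and 9.42 in shControl, and was 2.52-fold lower without overlap (log2 difference -1.33, SE 0.12, adjusted p = 2.52e-05). IARS1, the isoleucyl enzyme, gave 9.77, 10.09, 10.09 and 9.93 in shBrit1 and 11.52, 11.55 and 10.82 in shControl. Replicate 3 of shControl differed from the other controls by -0.72, yet lay above all shBrit1 arrays, and the fold was 2.503 (log2 difference -1.32, SE 0.18, adjusted p = 0.0003). AARS1, the alanyl enzyme, measured 12.03, 12.04, 12.03 and 11.97 in shBrit1 and 13.34, 13.15 and 12.73 in shControl. The shBrit1 arrays of AARS1 were nearly level while the controls spread, and the gene was 2.08-fold lower (log2 difference -1.06, SE 0.14, adjusted p = 0.000219).

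YARS1, the tyrosyl enzyme, averaged 11.69 ± 0.04 in shBrit1 (SD, n = 4) and 12.74 ± 0.10 in shControl (SD, n = 3), a 2.06-fold fall. TARS1, the threonyl enzyme, averaged 10.84 ± 0.08 in shBrit1 and 11.86 ± 0.29 in shControl, a 2.02-fold fall. With MARS1, GARS1, WARS1, IARS1 and AARS1 these made 7 cytosolic genes that fell at least 2-fold. EPRS1 was 1.84-fold lower, with 11.33 ± 0.07 in shBrit1 and 12.21 ± 0.29 in shControl. The arginyl, asparaginyl and cysteinyl genes RARS1, NARS1 and CARS1 fell 1.73-fold, 1.69-fold and 1.62-fold. RARS1 and NARS1, with HARS1 and QARS1, had their highest control value on shControl replicate 3, where the other 15 of the 19 cytosolic genes had their lowest. LARS1 (leucine) fell 1.60-fold, FARSA and FARSB, the subunits of the phenylalanyl enzyme, 1.57-fold and 1.37-fold, VARS1 (valine) 1.56-fold and HARS1 (histidine) 1.45-fold. The adjusted p of these cytosolic calls was at most 0.005. VARS1 had 4 further probes, of which 3 were not detected on any array and 1 was detected on 3 arrays and was not called (log2 difference -0.13, adjusted p = 0.266). A further IARS1 probe was not detected on any array.

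The cytosolic seryl and lysyl genes were not called, and the glutaminyl gene rose. SARS1, the seryl enzyme, averaged 12.82 ± 0.06 in shBrit1 and 12.94 ± 0.10 in shControl (log2 difference -0.11, adjusted p = 0.327), and the groups overlapped. KARS1, the lysyl enzyme of both compartments, averaged 10.73 ± 0.05 in shBrit1 and 10.83 ± 0.15 in shControl (log2 difference -0.10, adjusted p = 0.437), again with overlap. With median scaling both were called lower, SARS1 at -0.39 (adjusted p = 0.015) and KARS1 at -0.45 (adjusted p = 0.0157). QARS1, the glutaminyl enzyme, measured 13.43, 13.35, 13.45 and 13.31 in shBrit1 and 12.66, 12.58 and 12.70 in shControl. Every shBrit1 array was above every control and replicate 3 of shControl sat with the other controls. QARS1 was 1.67-fold higher (log2 difference 0.74, SE 0.08, adjusted p = 0.000101) and was called higher in all 19 alternative settings, with differences of 0.53 to 0.78.

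**Figure D2:**
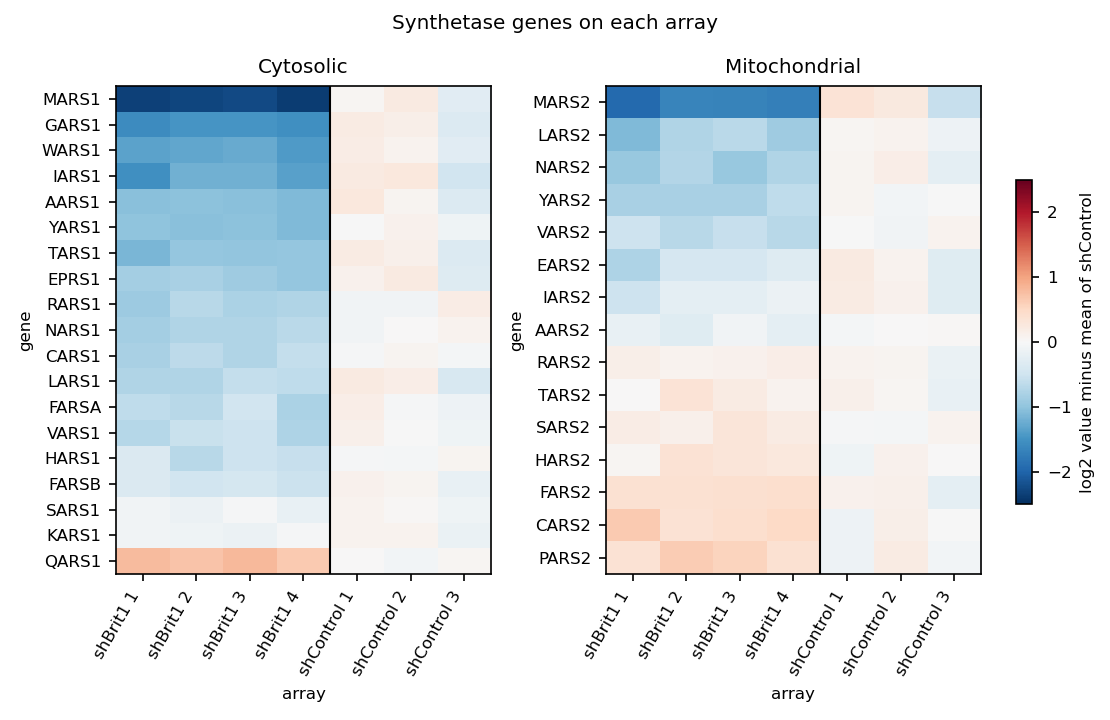
Log2 value on each array minus the mean of the 3 shControl arrays (colour scale, blue lower and red higher) for each synthetase gene, with the 4 shBrit1 arrays left of the black line and the 3 shControl arrays right of it. MARS1 at the top of the cytosolic panel and MARS2 at the top of the mitochondrial panel are the darkest blue, and QARS1 is the one cytosolic gene in red on all shBrit1 arrays.

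Among the mitochondrial genes that fell besides MARS2, LARS2 charges leucine. Its values were 7.34, 7.70, 7.77 and 7.56 in shBrit1 and 8.50, 8.53 and 8.31 in shControl. LARS2 was 1.80-fold lower without overlap (log2 difference -0.85, SE 0.12, adjusted p = 0.000384). NARS2, for asparagine, measured 8.45, 8.67, 8.45 and 8.64 in shBrit1 and 9.47, 9.56 and 9.15 in shControl, a 1.79-fold fall (adjusted p = 0.000396). YARS2, for tyrosine, measured 10.04, 10.04, 10.03 and 10.21 in shBrit1 and 10.92, 10.77 and 10.84 in shControl, a 1.70-fold fall (adjusted p = 0.00012). In both, all controls lay above all shBrit1 arrays. VARS2, for valine, measured 9.73, 9.56, 9.67 and 9.55 in shBrit1 and 10.24, 10.16 and 10.35 in shControl, a 1.54-fold fall (adjusted p = 0.000472). EARS2, for glutamate, measured 9.08, 9.45, 9.43 and 9.54 in shBrit1 and 10.08, 9.94 and 9.57 in shControl. Its groups nearly met at shControl replicate 3, and the 1.40-fold fall (log2 difference -0.49, SE 0.15, adjusted p = 0.0245) was not called without shBrit1 replicate 1 (adjusted p = 0.0568), shControl replicate 1 (adjusted p = 0.0901) or shControl replicate 2 (adjusted p = 0.0753), nor with dim probes kept in the test (adjusted p = 0.056).

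The 3 mitochondrial genes that rose did so by less than 1.5-fold. PARS2, for proline, measured 6.67, 6.94, 6.86 and 6.68 in shBrit1 and 6.17, 6.52 and 6.23 in shControl, a 1.40-fold rise (log2 difference 0.48, SE 0.12, adjusted p = 0.00745). CARS2, for cysteine, measured 9.75, 9.45, 9.51 and 9.59 in shBrit1 and 8.97, 9.24 and 9.08 in shControl, a 1.39-fold rise (log2 difference 0.48, SE 0.11, adjusted p = 0.00491). The groups did not overlap in either gene. FARS2, a single-chain phenylalanyl enzyme, measured 10.37, 10.37, 10.39 and 10.40 in shBrit1 and 10.09, 10.12 and 9.75 in shControl, a 1.32-fold rise (log2 difference 0.39, SE 0.11, adjusted p = 0.0127). Its shBrit1 arrays were level and shControl replicate 3 was the lowest array. With median scaling PARS2 stayed called (log2 difference 0.43, adjusted p = 0.0478), while CARS2 (0.20, adjusted p = 0.217) and FARS2 (0.08, adjusted p = 0.685) did not. The remaining 6 mitochondrial genes were not called. IARS2 and AARS2 had differences of -0.29 and -0.20, and RARS2, TARS2, SARS2 and HARS2 had differences of 0.12, 0.16, 0.20 and 0.24, of which RARS2, SARS2 and HARS2 changed sign with median scaling. IARS2 was called lower without shControl replicate 3 (log2 difference -0.44, adjusted p = 0.00471), and SARS2 was called higher (log2 difference 0.24, adjusted p = 0.0301).

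**Figure D3:**
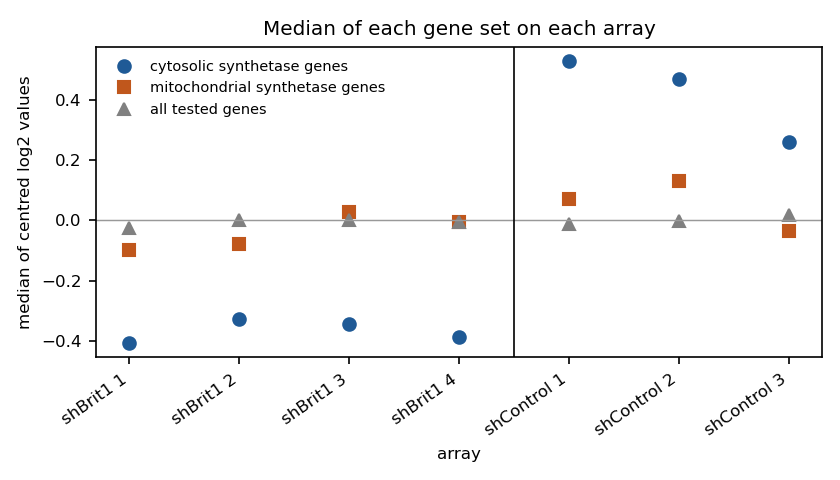
Median on each array (y axis, log2 units) of the values of the 19 cytosolic genes, the 15 mitochondrial genes and all 12372 tested genes, each gene centred on its mean over the 7 arrays, with shBrit1 left of the line. The cytosolic medians lie between -0.41 and -0.33 on the shBrit1 arrays and between 0.26 and 0.53 on the shControl arrays, lowest of the controls on replicate 3, and the mitochondrial medians lie between -0.10 and 0.13 on all arrays.

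The median SD of the cytosolic genes was 0.073 over the shBrit1 arrays and 0.154 over the shControl arrays. That of the mitochondrial genes was 0.131 over the shBrit1 arrays and 0.137 over the shControl arrays. Relative to the other controls, shControl replicate 3 was shifted towards the shBrit1 mean in 16 of 19 cytosolic genes and in 8 of 15 mitochondrial genes. The median shift of that array was -0.26 for the cytosolic and -0.20 for the mitochondrial genes. Without it, MARS1 differed by -2.45, GARS1 by -1.69 and MARS2 by -2.03.

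For 12 amino acids the cytosolic and the mitochondrial gene were both measured as a pair with matching names. In 10 of these pairs the cytosolic difference was below the mitochondrial one, with a median gap of -0.68 and a range of -1.18 to 0.17. The gap was widest for threonine and cysteine. TARS1 differed by -1.01 while TARS2 differed by 0.16, and CARS1 by -0.70 while CARS2 differed by 0.48. In arginine the difference was -0.79 for RARS1 and 0.12 for RARS2. Leucine and asparagine were the pairs with the mitochondrial gene lower, and for valine both genes stood close together at -0.64 and -0.62. Phenylalanine, with 2 cytosolic genes, showed the same order, FARSA and FARSB at -0.65 and -0.45 and FARS2 at 0.39. The joint gene EPRS1 stood at -0.88, against -0.49 for EARS2 and 0.48 for PARS2.

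**Figure D4:**
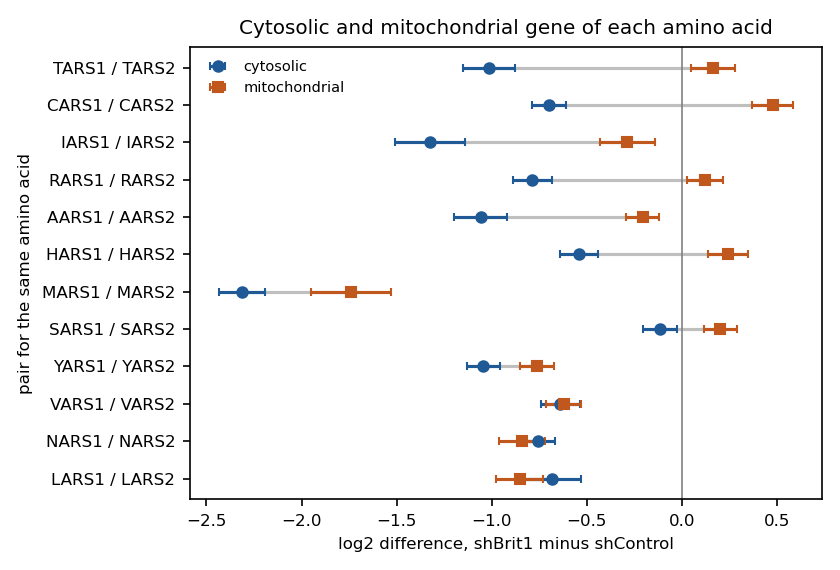
Log2 difference between shBrit1 and shControl (x axis) of the cytosolic gene (circles) and the mitochondrial gene (squares) for 12 amino acids, with bars of 1 standard error. The threonine and cysteine pairs at the top are widest apart, and the leucine and asparagine pairs at the bottom have the mitochondrial gene lower.

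The histidine pair is encoded by adjacent genes. In RefSeq (GRCh38.p14) HARS1 lies on the minus strand and HARS2 on the plus strand of chromosome 5, and their starts are 85 bases apart. The 84 bases between the starts, at chr5:140691371-140691454, are shown on the plus strand because both genes begin at their ends.
HARS1/HARS2: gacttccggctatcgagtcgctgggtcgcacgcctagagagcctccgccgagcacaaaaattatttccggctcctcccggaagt
HARS1 measured 11.33, 11.004, 11.18 and 11.12 in shBrit1 and 11.68, 11.64 and 11.77 in shControl and was called lower (log2 difference -0.54, SE 0.10, adjusted p = 0.00171). HARS2 measured 9.05, 9.38, 9.31 and 9.28 in shBrit1 and 8.90, 9.11 and 9.02 in shControl and was not called (log2 difference 0.24, SE 0.11, adjusted p = 0.0847). The groups of HARS1 did not overlap and those of HARS2 did. EPRS1 and IARS2 start 47627 bases apart on chromosome 1, and their differences were -0.88 and -0.29. Genes lying between them were not looked for.

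The synthetases can also be grouped by enzyme class and complex. The enzymes of classes I and II have unrelated catalytic folds. EPRS1, which holds both classes, was left out. Of 17 class I genes 13 fell (76.5%, against 30.1% of all genes) and 2 rose (11.8%, against 29.5%), with a median of -0.70. Of 16 class II genes 8 fell (50%) and 2 rose (12.5%), with a median of -0.33. The share of class II genes called, 62.5%, was near the 59.6% of all genes. In the multi-tRNA synthetase complex 5 of 7 genes fell (71.4%, against 30.1% of all genes), with a median of -0.79. They were EPRS1, IARS1, LARS1, MARS1 and RARS1, while KARS1 was not called and QARS1 rose. AIMP1, a scaffold protein of the complex, was detected on 2 of the 4 shBrit1 arrays and fell 2.51-fold (log2 difference -1.33, SE 0.14, adjusted p = 4.97e-05). Its size depended on background correction, with a difference of -0.71 from the authors' deposited log2 values.

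Of 12 cytosolic synthetases known as ATF4 targets in mouse cells, 11 fell (91.7%) and 0 rose, with a median of -1.03. SARS1 was the one not called. Of the other 7 cytosolic genes 5 fell (71.4%) and 1 rose (14.3%), with a median of -0.54. Among all 19 cytosolic genes 84.2% fell, and among all genes 30.1%. The promoters of the synthetase genes were searched for TGATGNAA on both strands, the core that C/EBP and ATF factors bind. RefSeq promoters, 250 bases before to 50 after a start, were given for 16 cytosolic and 14 mitochondrial genes, some with more than 1 start and overlapping sequence. The motif was found in 7 of 21 cytosolic promoters (33.3%) and in 1 of 18 mitochondrial promoters (5.56%), against 3.62% of all 35116 promoters. Each of the 7 cytosolic promoters belonged to a different gene. The matches with 10 bases on both sides are shown on the strand of the gene, with the motif in capitals, because 6 of the 8 hold the same 8 letters in one orientation or the other.
MARS1: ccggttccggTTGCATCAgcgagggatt
GARS1: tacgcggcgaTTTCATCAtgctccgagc
IARS1: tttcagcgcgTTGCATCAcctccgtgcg
AARS1: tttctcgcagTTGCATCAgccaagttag
TARS1: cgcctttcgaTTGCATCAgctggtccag
NARS1: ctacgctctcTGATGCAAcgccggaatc
CARS1: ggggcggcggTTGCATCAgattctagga
YARS2: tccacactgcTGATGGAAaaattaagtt
They lie at chr12:57488054-57488081 (MARS1, plus strand), chr7:30594835-30594862 (GARS1, plus), chr9:92293693-92293720 (IARS1, minus) and chr16:70289676-70289703 (AARS1, minus). The others lie at chr5:33440957-33440984 (TARS1, plus), chr18:57621805-57621832 (NARS1, minus), chr11:3057408-3057435 (CARS1, minus) and chr12:32756077-32756104 (YARS2, minus). In MARS1, IARS1, CARS1, TARS1 and NARS1 the motif begins within 14 bases of the start, in GARS1 33 bases before it, and in AARS1 and YARS2 187 and 197 bases before it.

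All 7 cytosolic genes with the motif fell, against 84.2% of all 19 cytosolic genes and 30.1% of all genes. These 7 are all among the 12 genes above known as ATF4 targets in mouse cells, so the groupings are not separate. The median of the 7 was -1.06, with a range of -2.31 to -0.70. Of 9 cytosolic genes with no match in the promoters given, 6 fell and 1 rose, with a median of -0.54. EPRS1 and WARS1 were among those 9 and fell 1.84-fold and 2.52-fold. The 3 cytosolic genes with no promoter given, LARS1, VARS1 and YARS1, all fell, with a median of -0.68. Whether the motif has a part in these falls was not tested. The promoter of MARS1, the gene that fell most, is shown from 250 bases before to 10 bases from its start, at chr12:57487818-57488077 on the plus strand, with the motif in capitals.
MARS1 promoter: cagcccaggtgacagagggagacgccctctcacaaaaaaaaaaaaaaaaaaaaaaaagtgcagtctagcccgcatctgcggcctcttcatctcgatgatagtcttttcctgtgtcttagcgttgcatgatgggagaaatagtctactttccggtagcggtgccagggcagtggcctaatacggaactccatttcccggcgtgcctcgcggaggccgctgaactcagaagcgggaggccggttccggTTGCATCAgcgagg
CACGTG, the element of MYC and of the MITF and TFE factors, was in 1 of 21 cytosolic and 4 of 18 mitochondrial promoters, against 7.26% of all promoters, and the genes holding it were IARS1, MARS2 and EARS2, which fell, and CARS2, which rose. The EARS2 match counts in 2 overlapping promoters. TTCNNNGAA, a STAT site, was in 4 of 21 cytosolic and 3 of 18 mitochondrial promoters, against 7.66% of all promoters, and 1 of the WARS1 promoters held it. The other genes holding it were TARS1, CARS1, PARS2 and WARS2. TARS1 and WARS2 count with more than 1 promoter, and WARS2 has no expression value. No match of one motif overlapped a match of another. A match of letters is not a measured binding site.

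Other genes of the amino acid stress response moved in both directions. Of 20 tested, 9 fell (45%, against 30.1% of all genes) and 3 rose (15%, against 29.5%). The share called, 60%, was near the 59.6% of all genes. When shControl replicate 3 was left out 5 rose, and 63.4% of all probes were called, against 53.8% with it. PSAT1, an enzyme of serine synthesis, measured 9.27, 9.41, 9.28 and 9.32 in shBrit1 and 12.02, 11.99 and 11.53 in shControl (5.77-fold lower, adjusted p = 1.12e-06). TRIB3, a pseudokinase that restrains this response, was 4.91-fold lower (adjusted p = 1.35e-06). NUPR1, a stress-induced chromatin protein, measured 13.05, 12.80, 12.88 and 12.84 in shBrit1 and 10.54, 10.41 and 10.60 in shControl (5.19-fold higher, adjusted p = 3.87e-07), and DDIT3, which encodes CHOP, was 5.06-fold higher (adjusted p = 8.03e-06). The groups of these genes did not overlap. ATF4 itself, looked up after the values were seen, measured 14.19, 14.15, 14.11 and 14.28 in shBrit1 and 14.34, 14.49 and 14.56 in shControl. Its difference of -0.28 (adjusted p = 0.0288) was not called with median scaling (adjusted p = 0.145), with cyclic loess (-0.01, adjusted p = 0.936), without shBrit1 replicate 2 or 3 (adjusted p = 0.0717 and 0.08), without shControl replicate 2 (adjusted p = 0.085) or with all its probes averaged (-0.12, adjusted p = 0.358).

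WARS1 fell, while no tested gene on a list of others known to be induced by interferon gamma fell. Of 12 such genes listed 8 were tested, and of these 5 rose (62.5%, against 29.5% of all genes) and 0 fell. The share called, 62.5%, was near the 59.6% of all genes. GBP2, an interferon-inducible GTPase, was 30.2-fold higher (log2 difference 4.92, and 3.81 without background correction), HLA-E, a class I molecule, 2.63-fold higher and PSMB8, an immunoproteasome subunit, 3.13-fold higher. TAP1, a peptide transporter subunit, was 1.86-fold higher (adjusted p = 0.0251), but was not called without any 1 of the arrays other than shControl replicate 3 (adjusted p = 0.053 to 0.093), with median scaling (adjusted p = 0.146) or with dim probes kept (adjusted p = 0.077). Over these 8 genes the median shift of shControl replicate 3 from the remaining controls was 1.01, and 8 rose when it was left out. Without that array 63.4% of all probes were called, against 53.8% with it. Omitting any 1 of the other 6 arrays left 3 that rose.

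In tRNA maturation, which precedes charging, 11 of 17 genes fell (64.7%, against 30.1% of all genes) and 0 rose, with a median of -0.77. TSEN15, a subunit of the tRNA splicing endonuclease, measured 8.23, 8.10, 7.98 and 8.18 in shBrit1 and 10.46, 10.49 and 9.95 in shControl, a 4.51-fold fall (adjusted p = 4.02e-06). POP5 and RPP40, subunits of ribonuclease P, fell 2.92-fold and 2.04-fold, and TRNT1, which adds the CCA end, fell 2.54-fold. With all tested probes averaged, the log2 difference was -0.83 for POP5, against -1.54 for its brightest probe, and -0.88 for TRNT1, against -1.35. Of 6 genes of cytosolic tRNA delivery and elongation 5 rose (83.3%, against 29.5% of all genes) and 0 fell, with a median of 0.48. With median scaling 3 rose and 0 fell. EEF2, the translocase, measured 14.33, 14.40, 14.35 and 14.36 in shBrit1 and 13.86, 13.85 and 13.95 in shControl, a 1.39-fold rise (adjusted p = 0.000987). EEF1D, an exchange factor subunit, rose 1.94-fold (adjusted p = 0.00177, log2 difference 0.96, and 0.51 with its tested probes averaged), and EEF2K, the kinase that inhibits EEF2, rose 1.40-fold (adjusted p = 0.00813) but not with median scaling (adjusted p = 0.496). EEF1A2 measured 9.42, 9.01, 9.20 and 9.12 in shBrit1 and 6.96, 6.92 and 4.87 in shControl and was not detected on shControl replicate 3. Its log2 difference was 2.94 (adjusted p = 0.00057), 2.25 without that array and 2.06 without background correction.

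In the mitochondrion 4 of 7 charging and elongation partners fell (57.1%, against 30.1% of all genes) and 1 rose (14.3%, against 29.5%). Their median was -0.36. GFM1, an elongation factor, measured 9.47, 9.50, 9.49 and 9.50 in shBrit1 and 10.95, 10.77 and 10.73 in shControl, a 2.51-fold fall (adjusted p = 4.1e-06). GATC, of the enzyme that makes glutaminyl-tRNA there, fell 1.54-fold (adjusted p = 0.000386), and MTFMT, which formylates the initiator methionyl-tRNA, fell 1.503-fold (adjusted p = 0.0105). TUFM, the factor that delivers charged tRNA, was 1.27-fold higher (adjusted p = 0.00878) and at -0.0030 with median scaling (adjusted p = 0.985). Of 5 genes of proofreading and selenocysteine charging 3 fell (60%, against 30.1% of all genes) and 0 rose. The share called, 60%, was near the 59.6% of all genes. Those that fell were DTD1, a D-aminoacyl-tRNA deacylase (1.54-fold), PSTK, a kinase of the selenocysteine path (1.70-fold), and AARSD1, an alanyl editing protein (1.53-fold).

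**Figure D5:**
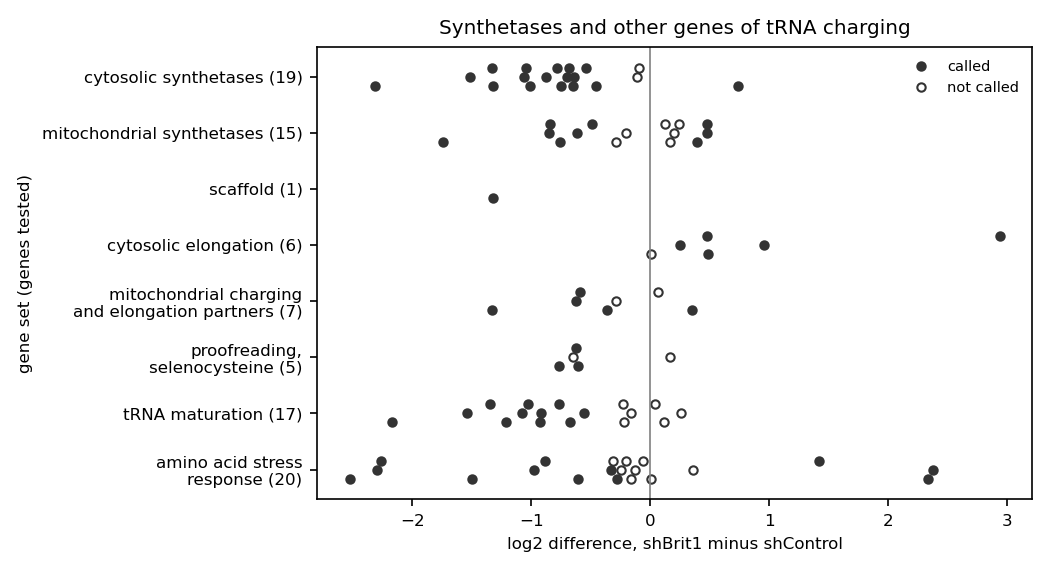
Log2 difference between shBrit1 and shControl (x axis) of each tested gene in the synthetase sets and 6 related gene sets, with filled points for genes called at an adjusted p under 0.05 and the number tested in brackets; points are offset vertically only to separate them. Tested tRNA maturation genes lie mostly below 0, cytosolic elongation genes lie at or above 0, and stress response genes lie on both sides.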

How the data were processed

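Total RNA of 7 samples was hybridised, as biotinylated cRNA, to 1-colour bead arrays. Per the file headers, the deposited table gives an intensity and a detection p-value per probe and array. The intensity values, as the authors deposited them, are linear and not normalized between arrays (median 75.9 to 87.6). Each deposited detection p-value column followed the signal beside it (Spearman's rho across probes -0.998 to -0.999). The authors also deposited log2 values, uncentred and quantile-normalized (values of equal rank differed between arrays by at most 0.000887, median 6.37), used as an alternative. 1 line without values was left out.

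Signals were processed with neqc of limma 3.58.1 in R 4.3.3 (offset 16). Probes detected at p under 0.05 on at least 3 arrays were fitted with lmFit and eBayes, two-sided, with Benjamini-Hochberg adjustment over all 17967. Of 48701 probes, 24782 had 1 gene symbol, 0 had several, and 24154 were named through gene identifiers against RefSeq GRCh38.p14. In data simulated for this comparison over 17967 probes, 38% of 50 changes of 0.5 log2, 88% of changes of 1 and 100% of changes of 2 and 3 were recovered, with 8 false calls. Only 50 probes of each size were changed there, while 53.8% of probes were called in the data. The adjusted threshold therefore differs, and recovery in the data can differ too. Members and gene lists were chosen with earlier results of these data known. All members are described. Values on every array are given for the 6 largest called falls, the called rises (4, where up to 6 were allowed), every called mitochondrial gene and members against their compartment's direction, and up to 4 called genes with the smallest p are named per related list. Deviations from the group means had correlations of 0.0967, -0.0211 and 0.0878 between same-numbered replicates. Between replicates of unlike number they ranged from -0.0904 to 0.0981, and no pairing was used in the main fit. Alternatives were background correction, normalization, filters, variance model, probe averaging, a replicate block and each array left out.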

Additional observations from a re-analysis of the deposited data

Results flagged for a closer look

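Among the 4 shBrit1 arrays, 3 of 34 members had 1 array far from the others by Dixon's criterion, a rate to be read against about 1 group in 20 by chance. AARS1 was lowest on shBrit1 replicate 4 at 11.97, with the next array at 12.03. TARS1 was lowest on shBrit1 replicate 1 at 10.73, with the next at 10.87. YARS2 was highest on shBrit1 replicate 4 at 10.21, with the next at 10.04. All 3 genes were called lower with each of these arrays left out.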

How the results depend on the processing

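Of 646 values of single synthetase genes under 19 alternatives, 614 kept direction and side of the threshold, 8 lost the call, 21 gained one and 3 changed sign. All sign changes came with median scaling, HARS2 at -0.0397, RARS2 at -0.16 and SARS2 at -0.16, none called there or in the main fit. TUFM was at -0.0030 with that scaling. Median scaling also moved the median difference to -1.03 for cytosolic and -0.46 for mitochondrial genes and left 1 mitochondrial gene higher, and 38.7% of all its calls were higher, against 49.9%. Array weights gave 5 higher mitochondrial genes, with 68.7% of all probes called, against 53.8% in the main fit. Leaving out 1 array in turn gave 8617 to 11394 called probes, 16 lower and 1 higher cytosolic genes each time, 5 to 7 lower and 3 to 4 higher mitochondrial genes, and medians of -0.80 to -0.72 and -0.24 to -0.17. With the replicate block, 8457 probes were called in place of 9669, with 16 lower and 1 higher cytosolic and 5 lower and 2 higher mitochondrial genes. EARS2 (adjusted p = 0.05), FARS2 (adjusted p = 0.0535), TUFM and ATF4 were not called with it. The cause of these shifts was not tested. VARS1 differed by -0.39 with its tested probes averaged, and PARS2 by 0.26 without background correction and 0.29 with the authors' deposited log2 values.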
